A study of Mus musculus with 63 samples.

Results

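Chemokines are small secreted or membrane-bound proteins that guide leukocytes through G protein–coupled receptors, and 10 such genes known for expression in epithelia (Ccl6, Ccl9, Ccl20, Ccl25, Ccl28, Cxcl1, Cxcl5, Cxcl10, Cxcl16, and Cx3cl1) were followed by gene name through all count tables, out of 54752 genes in each. Ccl6 was selected on its counts, which fell strongly after combined loss of the Mediator kinases CDK8 and CDK19, and the others as chemokines of epithelia. Ccl6 is therefore given as a description without a test after combined loss and wherever else those control libraries were compared, and the counts of members called there leave it out. RNA-Seq had been run on organoids and intestinal epithelial cells (IECs) of C57BL/6 mice to ask what loss of CDK8, CDK19, or both does to transcription, and 57 libraries in 19 groups of 3 were used here. The libraries held 15485959 to 32909565 counts each.

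In the first experiment, organoids were harvested 7 days after 4-hydroxytamoxifen (4-OHT). Its controls were VillinCreERT2, which carries a tamoxifen-inducible Cre driven by the Villin promoter of the intestinal epithelium, and C57BL/6 without a named allele. Its mutants were CDK8iIEC-KO (VillinCreERT2/Cdk8fl/fl), Cdk8fl/fl/Cdk19-/-, and CDK8iIEC-KO/Cdk19-/- (VillinCreERT2/Cdk8fl/fl/Cdk19-/-). The second followed VillinCreERT2/Cdk8fl/fl/Cdk19-/- organoids for up to 10 days (days 3, 5, 7, and 10) after 24 hours with 100 nM 4-OHT or 0.001% EtOH. Both arms carried the Cdk19 deletion and no Cre-only line was treated both ways in that table, so effects of 4-OHT or of Cre and of Cdk8 deletion cannot be told apart there. The third cultured the same line in Wnt3-conditioned medium (Wnt3-CM) for 10 days, and the fourth treated CDK8iIEC-KO/Cdk19D173A/- organoids, whose remaining Cdk19 allele encodes a kinase-dead protein, with EtOH or 4-OHT and, per the labels, ended at 7 days. IECs came from VillinCreERT2 and CDK8iIEC-KO/Cdk19-/- mice 14 days after the last of 5 daily injections of 80 mg/kg tamoxifen. Each organoid group carried 1 line number, so its 3 libraries measure the spread within a line, and p-values cover that spread only. The targeted genes were not lost from the whole-gene counts. Cdk8 stood at 80.6 ± 2.59 CPM (counts scaled to a common library size) in CDK8iIEC-KO and 75.6 ± 4.62 CPM in VillinCreERT2 organoids, and at 55.7 CPM in both arms at day 10, and Cdk19 stood at 25.6 ± 0.768 CPM in Cdk8fl/fl/Cdk19-/- and 31 ± 3.1 CPM in C57BL/6 organoids (SD, n = 3). Counts per exon were not analysed here, so the genotypes are as labelled and were not checked. The epithelial gene Epcam stood at 808 to 1800 CPM in organoids and 1100 to 1610 CPM in IECs. The pan-leukocyte gene Ptprc was at 0 to 0.398 CPM in organoids and 17.2 to 60.4 CPM in IECs, so the IEC libraries held RNA of leukocytes.

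The members fall into functional sets. Ccl6 and Ccl9 are neighboring CC chemokines that bind Ccr1 on myeloid cells, Ccl20 is the chemokine ligand of Ccr6 and is known from the epithelium over lymphoid follicles, Ccl25 draws Ccr9-bearing lymphocytes to the small intestine, and Ccl28 draws Ccr10-bearing IgA plasma cells to mucosa. Cxcl1 and Cxcl5 attract neutrophils through Cxcr2, and Cxcl10 attracts Cxcr3-bearing T cells and is a classic target of interferon and NF-κB. Cxcl16 and Cx3cl1 are made as transmembrane proteins, ligands of Cxcr6 and Cx3cr1, and are shed by the metalloproteases Adam10 and Adam17.

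The promoters of 4 members are shown, namely those of the neighbors Ccl6 and Ccl9, for comparison with each other, and those of the inducible chemokines Ccl20 and Cxcl10. RefSeq (GRCm38.p6) sequences running from 250 bases before to 50 bases after the start were on hand for 8 of the 10 members. Capitals mark matches on either strand to the TATA box, written TATAAA, the E-box, written CAGCTG, and the AP-1–type site, written TGACTCA, and to the NF-κB–type and interferon response–type motifs. Neighboring matches may overlap and then appear as 1 run.
Ccl6 promoter, chr11:83593038-83593337, minus strand: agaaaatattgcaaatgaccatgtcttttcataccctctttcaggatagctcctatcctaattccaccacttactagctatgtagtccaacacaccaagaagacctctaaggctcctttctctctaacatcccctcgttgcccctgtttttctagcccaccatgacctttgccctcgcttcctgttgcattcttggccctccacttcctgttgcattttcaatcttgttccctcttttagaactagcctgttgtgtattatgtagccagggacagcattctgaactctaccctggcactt
Ccl9 promoter, chr11:83578587-83578886, minus strand: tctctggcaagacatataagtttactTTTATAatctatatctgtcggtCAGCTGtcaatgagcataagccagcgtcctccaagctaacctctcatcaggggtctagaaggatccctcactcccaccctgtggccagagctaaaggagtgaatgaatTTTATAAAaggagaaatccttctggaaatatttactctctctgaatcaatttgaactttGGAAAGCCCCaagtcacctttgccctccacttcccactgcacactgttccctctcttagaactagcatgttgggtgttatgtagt
Ccl20 promoter, chr1:83116516-83116815, plus strand: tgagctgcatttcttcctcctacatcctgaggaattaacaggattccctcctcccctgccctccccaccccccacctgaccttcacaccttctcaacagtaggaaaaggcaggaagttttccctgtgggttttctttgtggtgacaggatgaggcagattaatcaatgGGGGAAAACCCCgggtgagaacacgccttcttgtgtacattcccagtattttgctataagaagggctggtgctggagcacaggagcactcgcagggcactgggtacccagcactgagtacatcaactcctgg
Cxcl10 promoter, chr5:92348840-92349139, minus strand: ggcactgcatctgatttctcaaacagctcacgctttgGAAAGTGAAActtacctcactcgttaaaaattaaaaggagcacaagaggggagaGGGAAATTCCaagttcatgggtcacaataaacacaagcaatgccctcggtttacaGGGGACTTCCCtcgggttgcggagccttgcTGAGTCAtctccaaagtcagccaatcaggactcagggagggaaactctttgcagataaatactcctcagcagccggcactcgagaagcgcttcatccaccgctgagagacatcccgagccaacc
No searched motif lay in the Ccl6 window. The Ccl9 window held TATA matches on both strands, an E-box, and 1 NF-κB–type match, while that of Ccl20 held a single run of overlapping NF-κB–type matches beginning at position -82 from the start. Cxcl10 had NF-κB–type matches from positions -159 and -104, an interferon response–type match from -213, and an AP-1–type match from -74. Of 32851 promoters of the same length, 50.8% held the NF-κB–type motif, 13.6% the TATA box, 16.3% the E-box, 5.2% the AP-1–type site, and 3.44% the interferon response–type motif. A match is a run of letters and not a shown binding site. In their most similar ungapped stretch of 40 bases, the Ccl6 and Ccl9 windows shared 36 bases, which crossed the start of Ccl6 (bases 226 to 265 of its window) and lay past the start of Ccl9 (bases 260 to 299).

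The 10 genes covered a wide range of levels. Divided by the summed length of annotated exons, Ccl25 or Cx3cl1 ranked highest in every organoid group, at 18.5 to 76.8 CPM per kb for Ccl25 and 16.6 to 70.3 CPM per kb for Cx3cl1. Ccl6 came next in the control lines, with 58.4 CPM per kb in VillinCreERT2 organoids beside 59.6 for Ccl25, but it ranged down to 0.944 CPM per kb in the 4-OHT–treated line at day 10. Ccl9 ran from 4.39 to 18.5, Ccl28 from 4.97 to 15.3, Cxcl16 from 3.18 to 13.8, and Ccl20 from 0.89 to 15.1 CPM per kb. The neutrophil chemokines were nearly silent in organoids. Cxcl5 was listed at 0 in 23 of 51 organoid libraries and at 3 counts or fewer throughout 14 of 17 groups, a depth at which 3 counts correspond to at most 0.19 CPM. Cxcl1 peaked at 1.42 CPM and Cxcl10 at 4.36 CPM as group means. Part of the exon sequence of Ccl25 (204 bases, Elavl1), Cxcl10 (133 bases, Art3), and Cxcl16 (552 bases, Zmynd15) lies opposite another gene, and whether reads were counted by strand is not given in the sources used here. In VillinCreERT2 IECs, Ccl6 led at 88.2 CPM per kb, followed by Cx3cl1 at 64.7 and Ccl25 at 60.1.

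Single loss of CDK8 went with lower Ccl20 and Cxcl16 in organoids, and Ccl6 values were lower too, but the C57BL/6 control line was also lower than the VillinCreERT2 line for the same 3 genes. Ccl6 (chr11:83587882-83593087, GRCm38) measured 101, 107, and 106 CPM in VillinCreERT2 and 54.0, 53.1, and 58.9 CPM in CDK8iIEC-KO organoids. The groups did not overlap, and the described log2 fold change was -0.92, with no test because the VillinCreERT2 libraries were among those that chose Ccl6. Ccl20 (chr1:83116766-83119167) measured 9.21, 9.21, and 11.7 CPM in VillinCreERT2 and 2.58, 3.07, and 2.41 CPM in CDK8iIEC-KO organoids, a fall of 3.73-fold (adjusted p = 3.48e-09, edgeR). Cxcl16 (chr11:70453983-70459984) fell 1.83-fold, from 26.9 ± 2.15 to 14.7 ± 1.09 CPM (SD, n = 3; adjusted p = 2.51e-07, edgeR). Ccl20 and Cxcl16 were the 2 members called (adjusted p under 0.05 and fold change over 1.5) of 6 tested, where 7.23% of all genes tested were called. The C57BL/6 line stood at 40.3 ± 6.97 CPM for Ccl6, 1.80 ± 0.439 for Ccl20, and 14.9 ± 1.95 for Cxcl16 (SD, n = 3), below every CDK8iIEC-KO library for Ccl6 and Ccl20 and overlapping them for Cxcl16. Between the control lines 3 of 6 tested members were called, beside 26.4% of all genes, with Ccl28 1.55-fold higher in C57BL/6 (adjusted p = 7.13e-08, edgeR; without C57BL/6 replicate 1 the log2 fold change was 0.53, under the fold cutoff) and Ccl20 and Cxcl16 lower by 5.61-fold and 1.8-fold. The described log2 fold change of Ccl6 was -1.38. Both comparisons use the VillinCreERT2 libraries, and line and genotype cannot be told apart for these genes. In CDK8iIEC-KO against VillinCreERT2 organoids, enterocyte markers (10 genes) summed to 11100 to 12800 against 15900 to 19200 CPM, goblet markers (9 genes) to 2620 to 2790 against 3660 to 3820 CPM, Paneth markers (9 genes) to 2480 to 2680 against 2840 to 2950 CPM, and tuft markers (8 genes) to 15.3 to 15.6 against 19.6 to 21 CPM. Their part in the chemokine values was not tested.

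Without CDK19, no member was called. In Cdk8fl/fl/Cdk19-/- against C57BL/6 organoids, 0 of 7 tested members passed by edgeR or DESeq2, where 5.25% of all genes did, although 4 had an unadjusted p under 0.05. Ccl9 had the lowest adjusted p (0.000231, edgeR), with 43.4 ± 5.01 CPM in C57BL/6 and 32.2 ± 1.87 CPM in the mutant (SD, n = 3), a difference of 1.35-fold that did not reach the fold cutoff. Ccl6 stood at 45.9, 46.7, and 43.9 CPM in the mutant against 36.1, 36.4, and 48.3 CPM in the control, overlapping values.

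Combined loss gave the lowest Ccl6 and Ccl9 of the 5 lines. Ccl6 measured 11, 10.2, and 9.85 CPM in CDK8iIEC-KO/Cdk19-/- organoids. This is about 10.1-fold below VillinCreERT2 (log2 fold change -3.34, the description that chose it) and below every library of the C57BL/6 line. Relative to the 2 control lines averaged, the described log2 fold change of Ccl6 was -2.65. Ccl9, which lies 9245 bases from Ccl6 on chromosome 11 (chr11:83572919-83578636), measured 47.2, 47.2, and 48.5 CPM in VillinCreERT2 and 19.9, 20.7, and 20.2 CPM after combined loss. It fell 2.35-fold (log2 fold change -1.23 ± 0.0797 SE, adjusted p = 2e-12, edgeR) and was the 1 member called of 6 tested, beside 19.4% of all genes. Ccl20 stood at 7.84, 5.7, and 9.02 CPM, lower than VillinCreERT2 (log2 fold change -0.41, under the fold cutoff) but higher than C57BL/6, and relative to the 2 control lines averaged it was higher by 0.83 on the log2 scale (adjusted p = 4.59e-05, edgeR). Cxcl16 likewise changed sign, from -0.11 to 0.31, without a call. Ccl25 and Ccl28 stood at 467 ± 14.1 and 63.1 ± 5.22 CPM (SD, n = 3), with log2 fold changes of 0.08 and 0.40. Paneth cell markers, 9 genes summed, were at 883 to 921 CPM after combined loss, 2840 to 2950 CPM in VillinCreERT2, and 5020 to 6230 CPM in C57BL/6. In the same order, tuft cell markers (8 genes) were at 3.48 to 4.57, 19.6 to 21.0, and 22.7 to 27.2 CPM. Goblet markers (9 genes) were at 2250 to 2480, 3660 to 3820, and 2670 to 2860 CPM, and enteroendocrine markers (8 genes) at 239 to 270, 370 to 402, and 646 to 715 CPM. Enterocyte markers (10 genes) were at 17700 to 18900, 15900 to 19200, and 14100 to 15000 CPM. The part of these cells in the chemokine values was not tested.

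The effect of combined loss differed from the sum of the single losses for 3 of 6 tested members, beside 19.6% of all genes. Ccl9 was lower than the sum by 0.67 on the log2 scale (± 0.111 SE, adjusted p = 2.79e-05, edgeR). Ccl20 was higher than the sum by 1.40 (adjusted p = 0.00067, edgeR) and Cxcl16 by 0.69 (adjusted p = 0.000531, edgeR). The value of Ccl6 was -2.59, given without a test. In this contrast the VillinCreERT2 libraries cancel, so it compares CDK8iIEC-KO/Cdk19-/- and C57BL/6 with the single mutants.

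**Figure D1:**
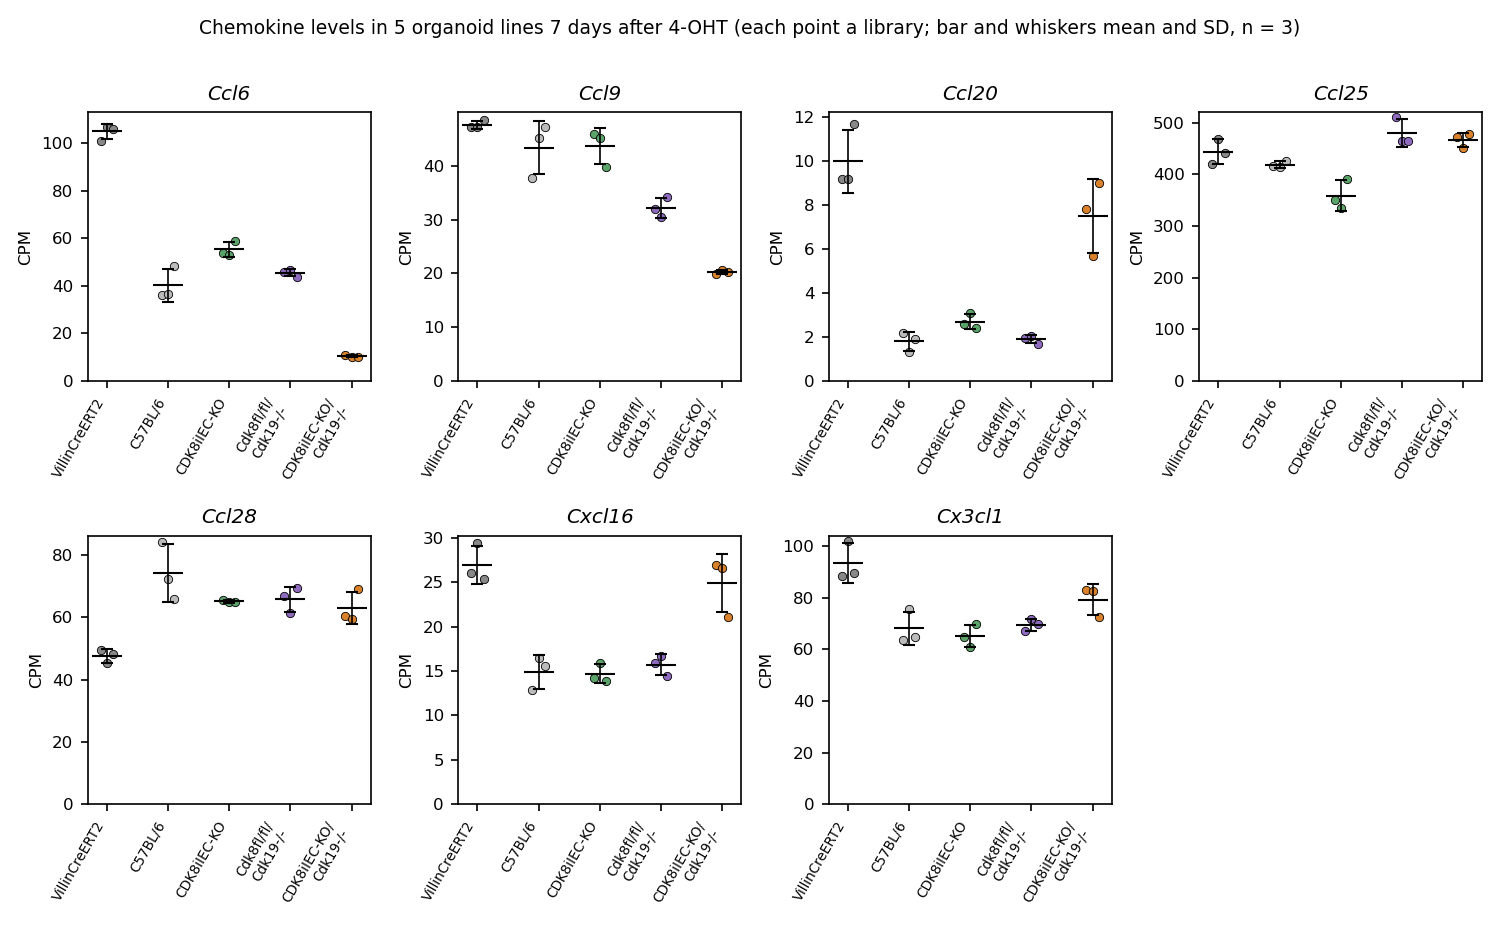
CPM (vertical axis, from 0) of 7 chemokines in the 5 organoid lines 7 days after 4-OHT, with a point for each library and the mean ± SD of 3 libraries. Ccl6 was lowest in CDK8iIEC-KO/Cdk19-/- (9.85 to 11 CPM), and the VillinCreERT2 and C57BL/6 controls did not overlap for Ccl6 and for 4 of the 6 tested members (Ccl20, Ccl28, Cxcl16, and Cx3cl1), beside 63.7% of all genes.

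In the time course, Ccl6 was lower with 4-OHT at every day and Ccl9 was called lower at days 5 to 10, whereas Cxcl16 rose at days 3 to 7 and Ccl20 at days 5 to 10. Ccl6 measured 34.3, 27.8, and 32.5 CPM with EtOH and 15.8, 11.4, and 13.6 CPM with 4-OHT at day 3. At day 5 it was at 36.3, 64.4, and 29.3 against 7.1, 6.51, and 5.39 CPM. At day 7 it was at 61.8, 34.9, and 41.4 against 8.14, 10.1, and 8.53 CPM, and at day 10 at 19.3, 13.6, and 13.0 against 1.28, 1.85, and 1.96 CPM. The arms did not overlap at any day, and the described log2 fold changes were -1.21, -2.77, -2.36, and -3.17. The summed Paneth markers were at 4210 to 5020 CPM with 4-OHT and 3850 to 4460 CPM with EtOH at day 3, and at 2190 to 2590 against 8250 to 8470 CPM at day 10. Goblet markers, 9 genes summed, were at 2850 to 3150 CPM with 4-OHT and 2940 to 3250 CPM with EtOH at day 3, and at 2370 to 2650 against 3940 to 4260 CPM at day 10. Tuft markers were lower with 4-OHT at every day, at 11.7 to 15 against 20 to 23.7 CPM at day 3 and 1.39 to 1.53 against 5.23 to 6.49 CPM at day 10. At day 7, Paneth markers were at 1930 to 2150 CPM with 4-OHT and 5050 to 6120 CPM with EtOH. The part of these cells in the Ccl6 values was not tested.

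Ccl9 rose with culture time in the EtOH arm and stayed low with 4-OHT. It measured 19.6, 21.6, and 21.5 CPM with EtOH at day 3 and 64.1, 56.0, and 48.8 CPM at day 10, against 15.7, 13.5, and 12.6 CPM and 15.7, 19.8, and 19.7 CPM with 4-OHT. With 4-OHT the log2 fold change was -0.58 at day 3, just under the fold cutoff (adjusted p = 0.00826, edgeR), and the arms did not overlap. It passed without a filter on low counts (-0.59, adjusted p = 4.97e-06, edgeR) and without EtOH replicate 1 or 4-OHT replicate 1 (-0.63 and -0.68, adjusted p = 0.0166 and 0.0087, edgeR). The fall was 2.42-fold at day 5, 4.07-fold at day 7, and 3.06-fold at day 10 (adjusted p = 3.33e-06, 1.5e-09, and 2.43e-08, edgeR). The day 10 effect was lower than the day 3 effect by 1.03 on the log2 scale (adjusted p = 0.000758, edgeR).

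Ccl20 was higher at day 10 than at day 3 in both arms and stood higher with 4-OHT. At day 5 it measured 2.11, 2.23, and 1.91 CPM with EtOH and 5.13, 3.31, and 5.12 CPM with 4-OHT (2.17-fold, adjusted p = 0.0133, edgeR), at day 7 3.28, 3.02, and 1.68 against 6.15, 4.99, and 4.88 CPM (2-fold, adjusted p = 0.0142, edgeR), and at day 10 13.5, 6.07, and 5.28 against 26.3, 18.5, and 15.2 CPM (2.41-fold, adjusted p = 0.000352, edgeR). The arms did not overlap at these days. The calls at days 5 and 7 were lost on leaving out single libraries, with adjusted p up to 0.0582 (without EtOH replicate 3, or 0.0567 and 0.0537 without 4-OHT replicate 1 or 3) and up to 0.0802 (without EtOH replicate 3, or 0.0634 without 4-OHT replicate 1, edgeR), and that at day 10 when only its 2 groups were fitted (adjusted p = 0.0624, edgeR).

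Ccl28 measured 53.4, 53.9, and 51.5 CPM with EtOH and 33.3, 36.4, and 36.8 CPM with 4-OHT at day 3. The arms did not overlap, but the log2 fold change of -0.57 was under the fold cutoff (adjusted p = 0.000809, edgeR), and it passed without 4-OHT replicate 2 or 3 (-0.59 each, adjusted p = 0.00333 and 0.00278, edgeR).

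The membrane chemokines and Ccl25 changed with a different timing. Cxcl16 measured 9.56, 9.19, and 10.1 CPM with EtOH and 25.8, 25.8, and 24.0 CPM with 4-OHT at day 3, a rise of 2.62-fold (adjusted p = 1.19e-08, edgeR). It was 1.7-fold higher at day 5 and 1.81-fold higher at day 7 (adjusted p = 0.000128 and 1.37e-05, edgeR), and at day 10 its 1.49-fold difference missed the fold cutoff and the arms overlapped. Without EtOH replicate 1 or 4-OHT replicate 3, the day 10 difference passed (log2 fold changes 0.76 and 0.73). The effect was smaller at day 10 than at day 3 by 0.82 on the log2 scale (adjusted p = 0.00158, edgeR). Cx3cl1 (chr8:94772009-94782427) was instead lower at day 3, with 175, 140, and 157 CPM against 109, 120, and 108 CPM (log2 fold change -0.48, under the fold cutoff), and rose 1.76-fold at day 7, from 157 ± 13.7 to 276 ± 32.3 CPM, and 1.6-fold at day 10, from 119 ± 6.41 to 190 ± 19.1 CPM (SD, n = 3; adjusted p = 1.62e-07 and 2.9e-06, edgeR). Ccl25 (chr8:4325210-4360020) changed direction between days. It measured 333, 323, and 317 CPM with EtOH and 131, 143, and 139 CPM with 4-OHT at day 3, a fall of 2.36-fold (adjusted p = 1.98e-12, edgeR), and 350, 318, and 307 against 543, 562, and 534 CPM at day 10, a rise of 1.68-fold (adjusted p = 1.31e-08, edgeR). The difference between these effects was 1.99 on the log2 scale (± 0.116 SE, adjusted p = 4.63e-14, edgeR), and for Cx3cl1 it was 1.16 (adjusted p = 1.58e-07, edgeR). Enterocyte markers, 10 genes summed, moved the same way, at 3090 to 3630 CPM with 4-OHT against 6960 to 7590 with EtOH at day 3 and 9460 to 11300 against 7700 to 9280 at day 10. At day 3, M cell and follicle-associated epithelium markers, 8 genes summed, were at 516 to 581 CPM with 4-OHT against 431 to 444 CPM with EtOH, and 24 immune-cell markers summed to 17.5 to 20.9 against 9.99 to 11.5 CPM. Most of these 24 were at 3 counts or fewer in every library (18 with 4-OHT and 17 with EtOH), so their sum rests on few genes. Ptprc averaged 0.0325 CPM with 4-OHT and 0.124 CPM with EtOH. The part of these cell types in the results was not tested, and in these bulk libraries fewer cells of a type and less RNA per cell cannot be told apart.

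Of the low-abundance CXC genes, Cxcl1 and Cxcl10 were called at day 10, and Cxcl5 was below the filter on low counts. Cxcl1 had 3, 6, and 8 counts with EtOH and 17, 15, and 23 counts with 4-OHT, a 3.35-fold rise (adjusted p = 0.00219, edgeR). Cxcl10 (chr5:92346638-92348889) had 14, 15, and 16 counts with EtOH and 4, 2, and 1 counts with 4-OHT, or 0.749 ± 0.0673 and 0.123 ± 0.0823 CPM (SD, n = 3), a fall of 5.85-fold (adjusted p = 0.00113, edgeR). At day 3 it had 5, 7, and 4 counts against 8, 7, and 8, and the day 10 effect was lower by 2.91 on the log2 scale (adjusted p = 0.00671, edgeR). At day 7, Cxcl10 was not called (log2 fold change -1.34, and -1.90 to -0.52 over left-out libraries). It passed without EtOH replicate 1 or 3 or 4-OHT replicate 1 (adjusted p = 0.0311, 0.0463, and 0.0403, edgeR). Cxcl1 passed at day 7 without 4-OHT replicate 3 (log2 fold change 1.31, adjusted p = 0.0432, edgeR). Members called were 2 of 8 tested at day 3, 3 at day 5, 4 at day 7, and 6 at day 10, beside 12.4%, 13.2%, 18.3%, and 15.8% of all genes. Of the 6 at day 10, 4 were higher (Ccl20, Ccl25, Cxcl1, and Cx3cl1), beside 8.86% of all genes, and 2 were lower (Ccl9 and Cxcl10), beside 6.92%. Responses at day 10 and day 3 differed for 5 of 8 members, beside 26.3% of all genes.

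In the EtOH arm alone, day 10 and day 3 differed for 4 of 8 tested members, beside 38.4% of all genes. Ccl9 was 2.69-fold, Ccl20 6.53-fold, and Cxcl10 2.59-fold higher at day 10, while Ccl28 was 1.6-fold lower (adjusted p = 3.74e-08, 6.69e-07, 0.0223, and 4.69e-05, edgeR). The described log2 fold change of Ccl6 was -1.04. The call for Cxcl10 was lost without EtOH day 3 replicate 1 or 3 or day 10 replicate 3 (adjusted p = 0.0616, 0.0853, and 0.0543, edgeR), and that for Ccl28 without day 10 replicate 1 (log2 fold change -0.55). From day 3 to day 10 of this arm, Paneth markers went from 3850 to 4460 up to 8250 to 8470 CPM. Goblet markers went from 2940 to 3250 up to 3940 to 4260 CPM, and enterocyte markers from 6960 to 7590 up to 7700 to 9280 CPM. Tuft markers went from 20 to 23.7 down to 5.23 to 6.49 CPM, and enteroendocrine markers from 28.8 to 33.5 down to 10.6 to 12.2 CPM. The part of these cells in the chemokine values was not tested. Column names are styled differently by day, and day and any batch cannot be told apart here.

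**Figure D2:**
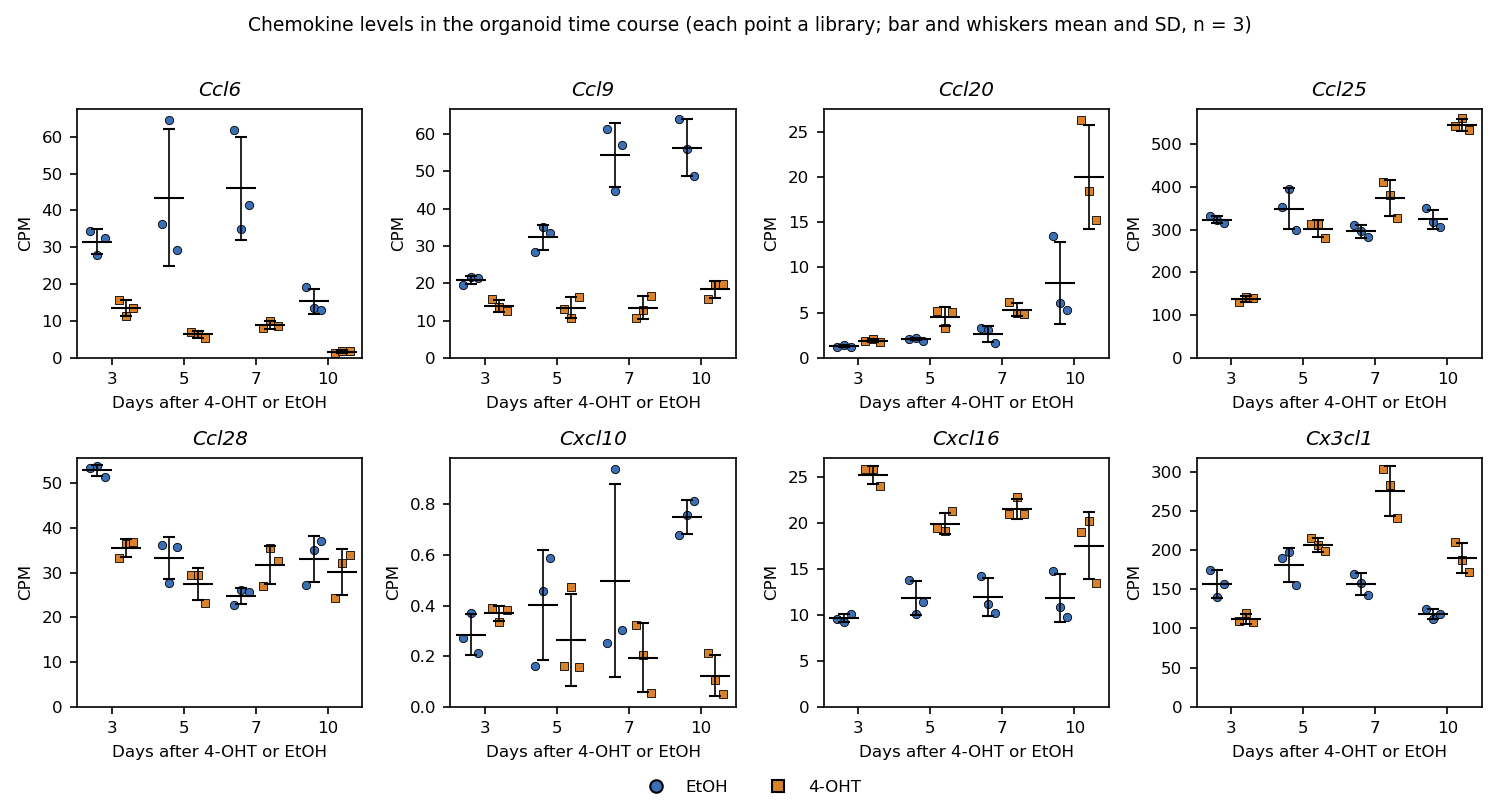
CPM (vertical axis, from 0) of 8 chemokines by days after EtOH (circles) or 4-OHT (squares), with a point for each library and the mean ± SD of 3 libraries. Ccl6 and Ccl9 lay below the EtOH arm, Ccl20 lay above it, and Ccl25 crossed from below at day 3 (131 to 143 CPM) to above at day 10 (534 to 562 CPM).

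In Wnt3-CM, which supplies a Wnt ligand that Paneth cells normally provide, Ccl6 was again lower, Ccl9 showed no call, and Cxcl10 had the largest fold change of the members. Ccl6 measured 25.7, 24.8, and 22.8 CPM with EtOH and 5.91, 3.5, and 4.6 CPM with 4-OHT (log2 fold change -2.39, a description). Cxcl10 measured 3.37, 5.67, and 4.06 CPM (64, 108, and 77 counts) with EtOH and 0.199, 0.243, and 0.29 CPM (4, 5, and 6 counts) with 4-OHT. The arms were far apart, and the fall was 17.4-fold (log2 fold change -4.12 ± 0.317 SE, adjusted p = 6.28e-10, edgeR). Ccl25 rose 1.78-fold, from 235, 215, and 222 to 425, 358, and 410 CPM (adjusted p = 5.22e-09, edgeR). These were the 2 members called of 7 tested, beside 16.9% of all genes. Ccl9 measured 19.9, 21.4, and 25.3 against 16.2, 15.9, and 15.7 CPM (log2 fold change -0.48, adjusted p = 0.000396, edgeR), which did not overlap but stayed under the fold cutoff. Cxcl16 stood at 41.6 ± 3.72 and 30.8 ± 7.7 CPM (SD, n = 3) and overlapped, and without 4-OHT replicate 1 it was lower by 0.64 on the log2 scale (adjusted p = 9.6e-06, edgeR).

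Set against day 10 without Wnt3-CM in a joint fit, 3 of 8 members responded differently, beside 13.3% of all genes. The response of Ccl9 was higher by 1.13 on the log2 scale (adjusted p = 1.94e-05, edgeR), that is, a smaller fall. Those of Cxcl16 and Cx3cl1 were lower by 1.01 and 0.60 (adjusted p = 0.0272 and 0.000231, edgeR), and both were lost on leaving out single libraries, as given among the processing alternatives. With the number of the column names as a replicate block, 4 members passed, beside 14.4% of all genes, the added one being Ccl20 (-0.92, adjusted p = 0.0193, edgeR). The difference for Cxcl10 was -1.58 (adjusted p = 0.134, edgeR), so a larger fall in Wnt3-CM was not shown. Medium and table cannot be told apart, since the libraries come from separate tables. In Wnt3-CM, Paneth markers summed to 6970 to 7700 CPM with EtOH and 1930 to 2370 CPM with 4-OHT, goblet markers to 2880 to 3510 against 1940 to 1990 CPM, and tuft markers to 20.7 to 24.5 against 2.24 to 2.87 CPM. Enterocyte markers overlapped between these arms, at 7720 to 9280 against 8740 to 9620 CPM. The part of these cell types in the chemokine values was not tested.

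In CDK8iIEC-KO/Cdk19D173A/- organoids, Ccl9 fell while Ccl6 missed the call. Ccl9 measured 50.5, 44.0, and 39.7 CPM with EtOH and 21.9, 16.4, and 18.8 CPM with 4-OHT, a fall of 2.35-fold (log2 fold change -1.23 ± 0.122 SE, adjusted p = 7.25e-05, edgeR). It was the 1 member called of 8 tested, beside 12.3% of all genes. Ccl6 measured 125, 78.4, and 81.1 CPM with EtOH and 53.2, 60.4, and 66.1 CPM with 4-OHT, which did not overlap (log2 fold change -0.66 ± 0.2 SE, adjusted p = 0.0543, edgeR). It passed with DESeq2 (adjusted p = 0.000187), with upper quartile scaling (0.0394, edgeR), with a minimum of 10 counts (0.0498, edgeR), and without EtOH replicate 2 or 3 (0.0343 and 0.0444, edgeR). Ccl20 spanned 3.83 to 15.1 CPM with EtOH and 8.27 to 23.9 CPM with 4-OHT, with 1 library in each arm far above its 2 others. The high libraries carried the same number in their column names, and libraries of this line with the same number deviated together (correlations of 0.47, 0.25, and 0.13). With that number as a replicate block, 3 members were called, beside 14.2% of all genes: Ccl9, Ccl20 (log2 fold change 0.96, adjusted p = 2.94e-05, edgeR), and Cxcl1 (0.83, adjusted p = 0.0283, edgeR). In that fit the adjusted p of Ccl6 was 0.212 (edgeR). Cxcl1 had 38, 20, and 13 counts with EtOH and 66, 28, and 27 counts with 4-OHT in the order of the numbers. Ccl28 stood at 49.6 ± 6.73 and 67.3 ± 6.94 CPM, Ccl25 at 454 ± 5.86 and 572 ± 40.3 CPM, and Cx3cl1 at 129 ± 7.1 and 165 ± 2.11 CPM (SD, n = 3), each higher with adjusted p of 0.015, 0.00442, and 0.00228 (edgeR) but under the fold cutoff. Summed enterocyte markers moved with them, at 17800 to 19300 CPM with EtOH and 23900 to 27100 CPM with 4-OHT. Paneth markers went from 3410 to 3650 down to 1730 to 2060 CPM, and goblet markers from 5170 to 5870 down to 4290 to 5070 CPM. Tuft markers went from 44.8 to 51.1 down to 11.8 to 14.6 CPM, and enteroendocrine markers, 8 genes summed, from 780 to 842 down to 304 to 324 CPM. Their part in the chemokine values was not tested. Compared with day 7 of the time course, the response of Ccl9 was higher by 0.79 and that of Cxcl16 lower by 0.66 on the log2 scale (adjusted p = 0.0251 and 0.0369, edgeR), 2 of 7 members beside 11.1% of all genes. These calls were lost in 8 and 7 of the 12 fits that left out 1 library, with adjusted p up to 0.0728 for Ccl9 and 0.0969 for Cxcl16 (edgeR). The described difference for Ccl6 was 1.70, with the EtOH and 4-OHT levels as given above. Line, genotype, and table cannot be told apart in this comparison.

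**Figure D3:**
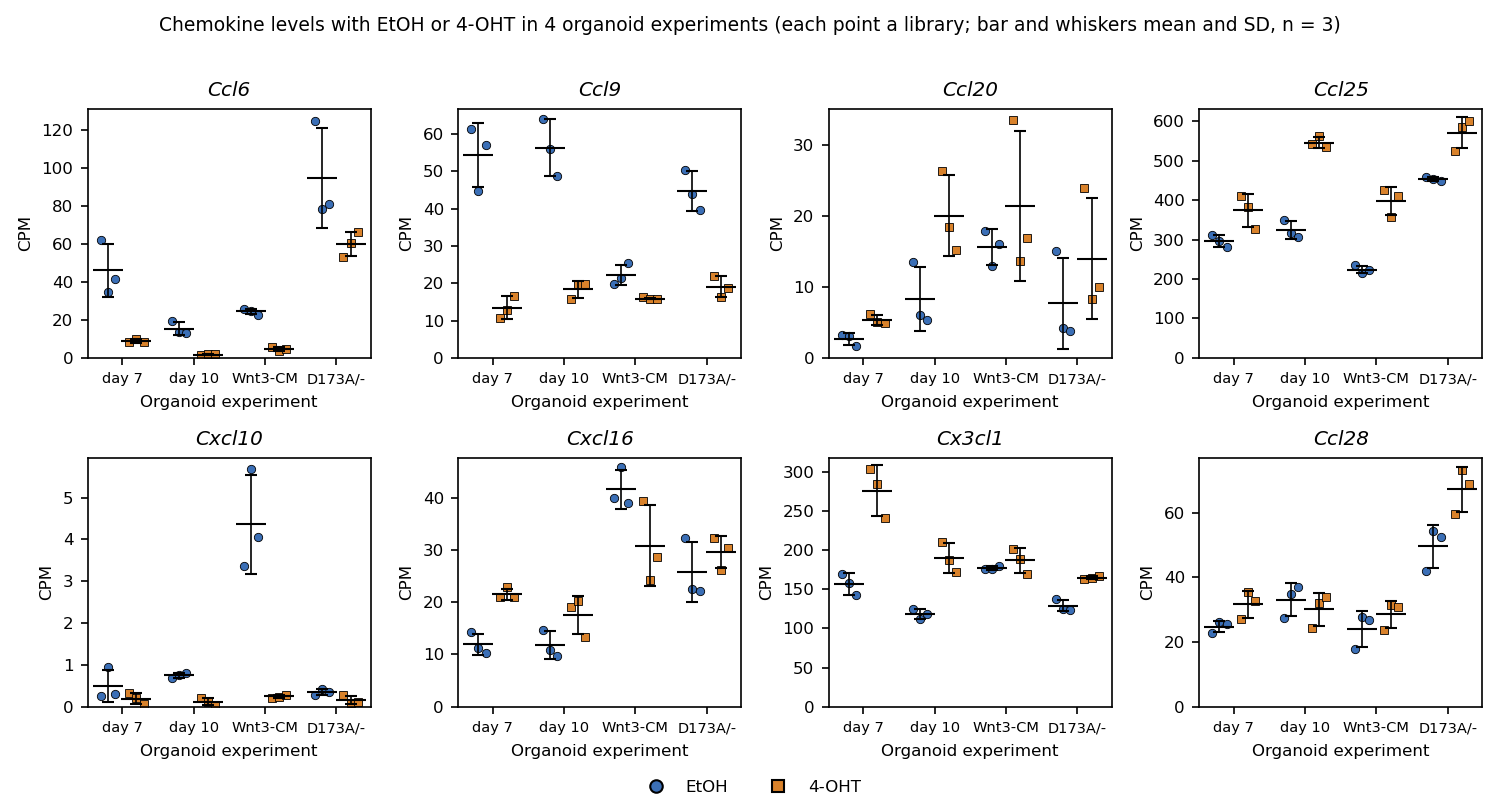
CPM (vertical axis, from 0) of 8 chemokines with EtOH (circles) or 4-OHT (squares) in the time course at days 7 and 10, in Wnt3-CM, and in CDK8iIEC-KO/Cdk19D173A/- organoids, with a point for each library and the mean ± SD of 3 libraries. Cxcl10 reached 3.37 to 5.67 CPM in Wnt3-CM with EtOH and at most 0.29 CPM with 4-OHT, and Ccl6 stood at 53.2 to 66.1 CPM in the 4-OHT–treated kinase-dead line.

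In IECs, no member was called by edgeR or DESeq2 among the 9 tested, beside 1.5% of all genes, and 1 (Ccl25) had an unadjusted p under 0.05. Ccl25 measured 462, 462, and 419 CPM in VillinCreERT2 and 353, 339, and 409 CPM in CDK8iIEC-KO/Cdk19-/- IECs, which did not overlap (1.22-fold lower, adjusted p = 0.217, edgeR). Ccl6 measured 136, 183, and 155 CPM in VillinCreERT2 and 184, 78.2, and 62.2 CPM after combined loss. The first of the mutant libraries lay slightly above the highest control and the other two lay below all controls. Without that library the described log2 fold change was -1.17 in place of -0.55. Ccl9 measured 18.2, 44.6, and 30.3 CPM against 96.2, 38.5, and 29.2 CPM, with the same mutant library highest. The neutrophil chemokine Cxcl5 had 0, 82, and 2 counts in VillinCreERT2 and 143, 41, and 38 counts after combined loss, and without VillinCreERT2 replicate 2 it alone was called (log2 fold change 5.96, adjusted p = 0.0218, edgeR). Cxcl1 had 3, 17, and 2 counts against 55, 18, and 11. Cx3cl1 measured 271, 243, and 249 CPM against 216, 291, and 283 CPM, with 1 mutant library below and 2 above all controls. Cxcl10 measured 1.59, 2.12, and 2.14 CPM against 2.21, 2.17, and 1.72 CPM, and its groups overlapped.

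Markers of other cells also differed between these libraries. The 24 immune markers summed to 190, 619, and 226 CPM in the VillinCreERT2 libraries and 1540, 955, and 666 CPM in the mutant libraries, with none at 0. The 12 mesenchymal and endothelial markers summed to 9.22, 808, and 44.5 CPM and to 835, 538, and 410 CPM. The mutant library highest in Ccl6, Ccl9, Cxcl1, and Cxcl5 was thus also the highest in immune markers, and VillinCreERT2 replicate 2 was the highest of its group in all of them. The mutant libraries at 955 and 666 CPM of immune markers also lay above all controls in these markers, but below all controls in Ccl6 (78.2 and 62.2 CPM). Markers of 3 secretory cell types were lower in the mutant IECs. Paneth markers summed to 3890 to 6410 CPM in VillinCreERT2 and 992 to 2200 CPM in the mutant, goblet markers to 12600 to 14900 and 5250 to 7530 CPM, and tuft markers to 106 to 143 and 46.6 to 91.5 CPM, while enteroendocrine markers overlapped, at 258 to 333 and 226 to 284 CPM. The part of all these cells in the IEC values was not tested. In organoids the immune markers summed to 3.84 to 20.9 CPM, and 5 to 13 of the 24 were at 0 in every library of a group.

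**Figure D4:**
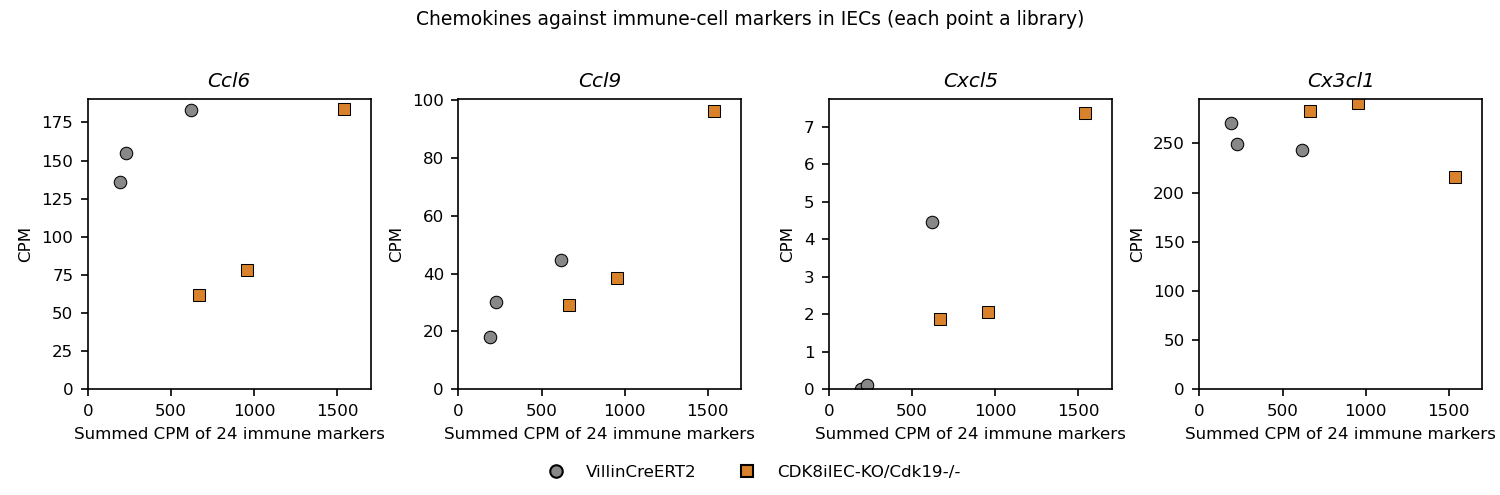
CPM (vertical axis, from 0) of Ccl6, Ccl9, Cxcl5, and Cx3cl1 against the summed CPM of 24 immune-cell markers (horizontal axis) in the 6 IEC libraries, circles for VillinCreERT2 and squares for CDK8iIEC-KO/Cdk19-/-. The mutant library at 1540 CPM of immune markers was highest for Ccl6 (184 CPM), Ccl9 (96.2 CPM), and Cxcl5 (7.36 CPM) and lowest for Cx3cl1 (216 CPM).

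Other genes of the chemokine system were sparse in organoids. Of 28 further chemokine genes, 3 passed the filter on low counts in the day 7 lines and the time course, and of 22 receptors, 2 and 0. Cxcl11, an interferon-induced ligand of Cxcr3 like Cxcl10, was the 1 of 3 further chemokines called at day 5 and at day 7, beside 13.2% and 18.3% of all genes, higher with 4-OHT by 1.49 and 1.35 on the log2 scale (adjusted p = 0.0134 and 0.0109, edgeR). Of the 5 genes that process chemokines, 1 was called higher and 1 lower at day 7 and again at day 10, beside 18.3% and 15.8% of all genes called either way. Dpp4, a protease that trims their N-termini, rose with 4-OHT at day 7 and day 10 by 1.26 and 1.11 (adjusted p = 6.89e-12 and 6.54e-11, edgeR). Mmp7, a Paneth cell metalloprotease also in the Paneth list, fell by 0.91 and 1.16 (adjusted p = 2.59e-08 and 3.16e-10, edgeR). At day 7, enterocyte markers summed to 12500 to 14600 CPM with 4-OHT and 9510 to 11800 CPM with EtOH, and the part of cell types in the Dpp4 and Mmp7 values was not tested. Neither sheddase of Cxcl16 and Cx3cl1, Adam10 or Adam17, was called in those comparisons.

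Genes upstream of the inducible members were also counted. Of 18 tested NF-κB factors and feedback genes, 2 were higher and 0 lower at day 10, among them Tnfaip3, an NF-κB–induced inhibitor of that pathway, by 1.06 (adjusted p = 5.75e-10, edgeR), and 0 of 18 were called in Wnt3-CM and 0 of 20 in IECs, beside 16.9% and 1.5% of all genes. At day 10, 8.86% of all genes were called higher, and the median of the list was 0.18 beside 0.02 over all genes (log2). Of 17 tested upstream receptors, 7 were higher and 0 lower at day 7, including Tlr3, a sensor of double-stranded RNA, by 1.05 (adjusted p = 9.1e-11, edgeR). At day 7, 9% of all genes were called higher, and the medians were 0.28 for the list and -0.01 for all genes. At days 3, 5, and 10 the list had 2, 4, and 1 higher and 0, 0, and 1 lower, and the NF-κB list had 0, 2, and 3 higher and 1, 0, and 0 lower at days 3, 5, and 7. Calls over all genes made up 12.4% at day 3 and 13.2% at day 5, and 51.9% and 65% of these calls were higher. The 24 immune-cell markers, of which 18 with 4-OHT and 16 with EtOH were at 3 counts or fewer in every library, summed to 9.54 to 13.8 CPM with 4-OHT and 7.06 to 8.58 CPM with EtOH at day 7. Enterocyte markers were then higher and Paneth markers lower as given above, and the part of all these cells in these list counts was not tested. Among 7 tested mucosal partner genes, Il33, an alarmin, Il15, a cytokine of intraepithelial lymphocytes, and Il18 were higher at day 10 by 1.57, 1.03, and 0.92 (adjusted p = 6.93e-06, 1.01e-06, and 3.46e-07, edgeR), 3 higher and 0 lower, with a list median of 0.44 beside the same 8.86% and 0.02 over all genes. At days 3, 5, and 7 these genes had 2 higher each and 1, 0, and 0 lower, beside the shares of all genes given above for those days.

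**Figure D5:**
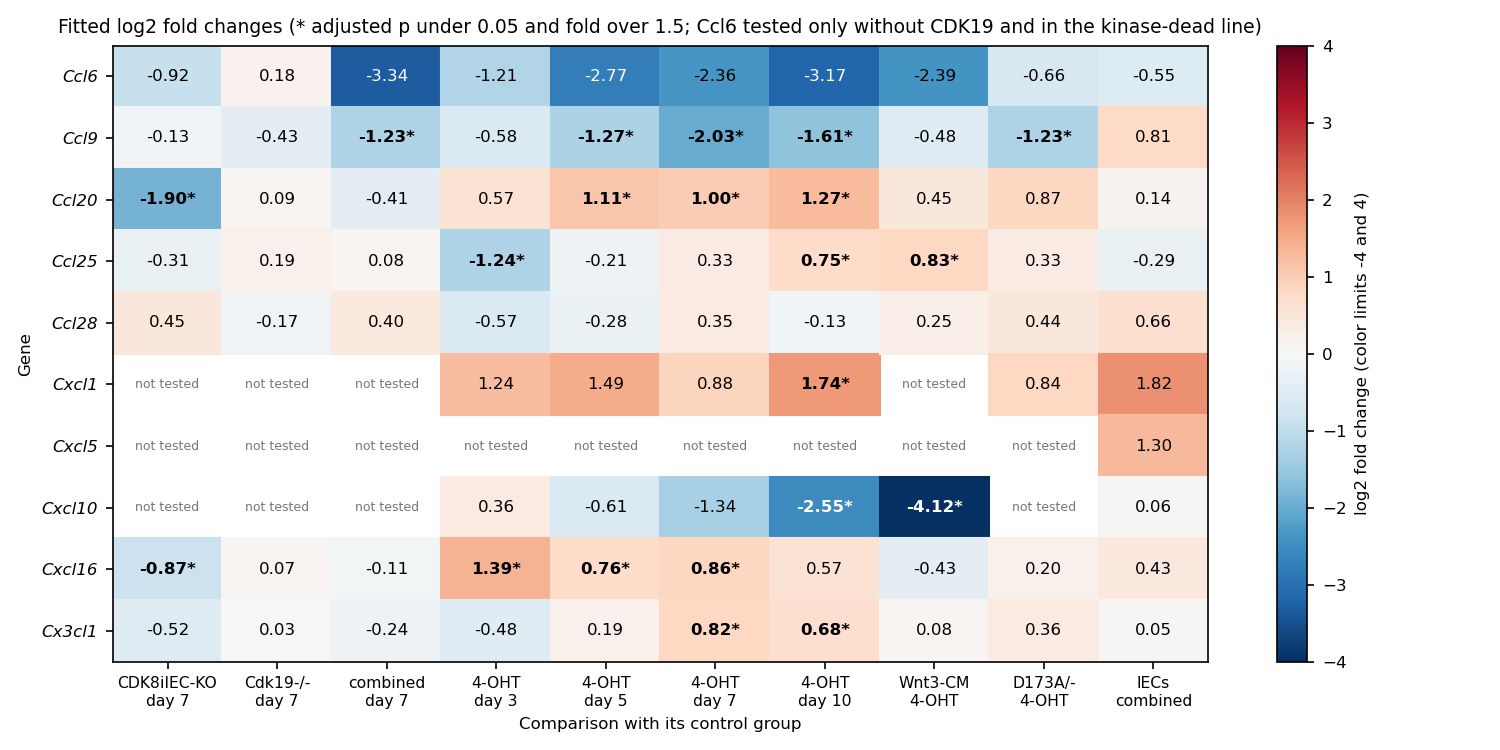
Fitted log2 fold changes (color, blue lower and red higher, with limits at -4 and 4) of the 10 chemokines (rows) in 10 comparisons with the respective control (columns); asterisks mark adjusted p under 0.05 with a fold over 1.5, and Ccl6 was tested only without CDK19 and in the kinase-dead line. Ccl9 was called lower in 5 of these comparisons and Cxcl10 in 2, and Ccl25 was lower at day 3 (-1.24) and higher at day 10 (0.75).

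The genes whose pattern was most like each member were ranked by Pearson r over the 19 group means, with the mean of each table removed, among 11671 genes averaging at least 20 counts in every table. For Ccl6 these were Pa2g4 (0.934), Fam117a (0.931), Maz (0.915), Spdef (0.914), and Lig3 (0.914), of which Spdef, a transcription factor of secretory cells, is also in the goblet list. Ccl25 was closest to Khk (0.978), Fahd1 (0.962), and Aqp11 (0.954), and Cx3cl1 to Wdtc1 (0.966), Cited2 (0.944), and Cdhr5 (0.931). The values for Ccl9 were 0.899 (Imp4), 0.899 (Mbd3), and 0.875 (Exosc2), for Ccl20 0.933 (Bpgm), 0.930 (Ubxn2a), and 0.928 (Dgkd), for Cxcl16 0.870 (Prkx), 0.851 (Card19), and 0.850 (Tmem181c-ps), and for Ccl28 0.845 (Kyat3), 0.795 (Sirt5), and 0.793 (Chid1). Among the members, Ccl6 and Ccl9 had r = 0.58 and Ccl6 and Ccl20 r = -0.59 over the same groups. These values describe group means that share libraries and culture conditions.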

How the data were processed

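Poly-A RNA of organoids and IECs had been read in 100 bp pairs. The deposited tables hold raw counts per gene, made by the authors without normalization, and their notes name STAR 2.5.2, featureCounts, Subread 1.6.3, and mm10. Reads shared by similar genes could be lost or split in such counts. Groups were taken from the labels, the Wnt3-CM columns were matched by name, and the kinase-dead organoid columns by elimination. Another 6 IEC columns with unexplained letters were not used, so the planned comparison of IECs with the kinase-dead allele was left out.

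Counts were tested with edgeR 4.0.16 in R 4.3.3 (filterByExpr, TMM, robust quasi-likelihood F test) on all genes of a table, and joint fits of 2 tables gave the differences between experiments. A gene was called at a fold over 1.5 with p, after Benjamini-Hochberg adjustment, below 0.05. For the SE, the absolute log2 change was divided by the square root of the F statistic. Libraries held 15485959 to 32909565 counts, which TMM factors scaled before CPM were taken, and exon lengths come from GENCODE vM21. Count depth limits Cxcl1, Cxcl5, and Cxcl10, and counting error alone does not include the spread between cultures. Libraries of a group differed by more than sampling noise (chi-square per degree of freedom 2.3 to 64.5). Deviations of same-numbered libraries from their group means all correlated over 0.1 in 2 of 12 comparisons, Wnt3-CM and the kinase-dead line, where the numbers come from the column names and are taken to pair the libraries. DESeq2 1.42.0, other filters, upper quartile scaling, a replicate block, and leaving out each library were alternatives. Scripts were tested on simulated data.

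Ccl6 had been planned as tested in 3 comparisons that use libraries of its selection, and is given there without a test. The members, lists, and markers were chosen with earlier results of these data known. The text names all members, of each list at most the 4 called genes of largest change per comparison, Cdk8 and Cdk19, and the 5 genes most like Ccl6 and 3 most like each other member. One of the gene lists is not reported here.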

Additional observations from a re-analysis of the deposited data

Results flagged for a closer look

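Chemokine responses that differed between settings by a test of the difference itself (edgeR, adjusted over all genes) are given here as values. Against the sum of single losses, combined loss gave -0.67 for Ccl9, 1.40 for Ccl20, and 0.69 for Cxcl16 on the log2 scale. Between day 10 and day 3 of the time course the responses differed by -1.03 for Ccl9, 1.99 for Ccl25, -2.91 for Cxcl10, -0.82 for Cxcl16, and 1.16 for Cx3cl1. For Ccl25, every 4-OHT library lay below all EtOH libraries at day 3 and above all of them at day 10. Between Wnt3-CM and day 10 of the time course the differences were 1.13 for Ccl9, -1.01 for Cxcl16, and -0.60 for Cx3cl1. Between the kinase-dead line and day 7 they were 0.79 for Ccl9 and -0.66 for Cxcl16. Of the 12 fits that left out 1 library, 6 and 3 ended the calls of Cxcl16 and Cx3cl1 between Wnt3-CM and day 10, and 8 and 7 those of Ccl9 and Cxcl16 between the kinase-dead line and day 7.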

How the results depend on the processing

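Of 1705 member values recomputed under the alternatives, 1604 kept their direction and side of the threshold, 37 lost and 23 gained a call, 38 changed sign, and 3, all of Ccl6, moved without a test. Counts of members called changed by over 1.5 times in Wnt3-CM with a minimum of 10 counts (1, since Cxcl10 fails that filter), in the kinase-dead line without a filter, with that minimum, with upper quartile scaling, or with DESeq2 (2 each) and with a replicate block (3), and in the combined-loss organoids against both control lines averaged (2), where Ccl20 became 0.83 and Cxcl16 0.31.

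Leaving out 1 library at a time gave 0 to 1 member in IECs, 1 to 2 in the kinase-dead line, 1 to 3 for Wnt3-CM against day 10, and 0 to 2 for the kinase-dead line against day 7. In that last comparison the calls of Ccl9 and Cxcl16 were lost in 8 and 7 of 12 such fits. Against day 10, Cxcl16 was lost in 6 of 12 (adjusted p 0.0577 to 0.0739, edgeR), without Wnt3-CM EtOH replicate 2 or 4-OHT replicate 3, or without day 10 EtOH replicate 2 or 3 or 4-OHT replicate 1 or 2, and without a filter (0.063, edgeR). Cx3cl1 fell under the fold cutoff without Wnt3-CM 4-OHT replicate 3, day 10 EtOH replicate 2, or day 10 4-OHT replicate 1 (-0.56 to -0.52), and with upper quartile scaling (-0.56).

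The sign changes were among values that were not called in the report. Ccl25 was 0.00 between control lines with upper quartile scaling, and between EtOH days it was -0.08 with a minimum of 10 counts or with upper quartile scaling, -0.02 with only the groups compared, and -0.05 to 0.05 over left-out libraries. Over left-out libraries, Cxcl16 ran from -0.18 to 0.00 in combined-loss organoids, Ccl28 from -0.26 to 0.00 at day 10, and Ccl20 from -0.02 to 0.70 in Wnt3-CM. Without CDK19, Ccl20 ran from -0.10 to 0.23, Cxcl16 from -0.03 to 0.15, and Cx3cl1 from -0.01 to 0.12. In IECs, Ccl20 ran from -0.61 to 0.61, Cxcl10 from -0.07 to 0.16, and Cx3cl1 from -0.03 to 0.18. For the kinase-dead line against day 7, Ccl20 ran from -0.76 to 0.80, Ccl25 from -0.10 to 0.06, Ccl28 from -0.03 to 0.17, and Cxcl1 from -0.57 to 0.51. The cause was not tested.

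With a replicate block, the called counts equaled those without it in 14 of 16 comparisons fitted, and Ccl20 in IECs was -0.20. The block was chosen after seeing the data for the 4 differences of responses and, by the number of the column names, for Wnt3-CM and the kinase-dead line. It gained 3 calls and lost 0, namely Ccl20 and Cxcl1 in the kinase-dead line (3 in place of 1 called) and Ccl20 for Wnt3-CM against day 10 (4 in place of 3 called). In 2 of 12 comparisons every library correlated best with its own number. Cxcl1, Cxcl5, and Cxcl10 had too few counts in most organoid groups for small changes to be detectable.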
